A study of Mus musculus with 15 samples.

Results

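The genes described here are 8 modulators of Wnt signaling, taken by their symbols from the 27803 genes of the deposited count tables: the secreted antagonists Sfrp1, Sfrp2 and Dkk3, the feedback inhibitor Axin2, β-catenin (Ctnnb1), and the nuclear factors Lef1, Tcf7l1 and Tcf7l2. All 8 were found in every library's table. Their UMI counts were followed by cell class and condition in 15 mice, with the animal as the replicate. In the GENCODE M21 annotation of GRCm38, Sfrp1 lies at chr8:23411502-23449632, Sfrp2 at chr3:83766321-83774316, Axin2 at chr11:108920349-108950783, Ctnnb1 at chr9:120929216-120960507, Lef1 at chr3:131110471-131224356 and Tcf7l2 at chr19:55741820-55933654, all on the + strand. Dkk3 (chr7:112116017-112159057) and Tcf7l1 (chr6:72626378-72789254) lie on the − strand. Genes of the opposite strand that are also in the tables overlap Sfrp2, Axin2, Ctnnb1 and Tcf7l1, so their counts are uncertain to the extent that counting did not use strand.

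In canonical Wnt signaling, a secreted Wnt ligand bound to a Frizzled receptor and an Lrp co-receptor stops the destruction complex, built around Axin and Apc, from degrading β-catenin, which then acts with Lef and Tcf factors at target genes. Axin2 is itself a target of the pathway and part of the complex that restrains it, and secreted Frizzled-related proteins such as Sfrp1 and Sfrp2 can bind Wnt ligands outside the cell. In the cerebellum, Wnt signaling patterns the tissue early and maintains the blood-brain barrier of its vessels, while Sonic hedgehog drives the proliferation of cerebellar granule neuron progenitors (CGNPs), the cells from which SHH-driven medulloblastomas arise.

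The 3 groups of 5 mice were WT C57BL/6 cerebella at postnatal day 7 (P7), and medulloblastomas of M-Smo mice (Math1-Cre:SmoM2/EYFPloxP/loxP, on the C57BL/6 background) treated with vehicle or with 75 mg/kg vismodegib. Vismodegib inhibits SMO, the activator of the hedgehog pathway, and SmoM2 is a constitutively active SMO. The tumor-bearing littermates received 3 daily injections from P12 to P14, and tumors were taken at P15. In these mice Cre is driven by a cloned Atoh1 promoter, so SmoM2 is expressed in the Atoh1 lineage, and a sagittally divided part of each cerebellum or tumor was dissociated. For capture, a PDMS device served for WT cells, and a glass one, with human cells spiked in, for the tumors. Age, genotype and device therefore cannot be told apart in any comparison of tumors with WT.

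Drop-seq captures single cells in droplets with barcoded beads, so that each unique molecular identifier (UMI) counts 1 captured mRNA molecule. Libraries held 2310474 to 5952919 UMIs in WT, 4307404 to 17708677 in vehicle-treated tumors and 2601001 to 10922460 in vismodegib-treated tumors. After filtering, 7224, 18293 and 12429 cells remained, with median depths per animal of 1082.5 to 1625, 1141 to 2597 and 1183.5 to 2368 UMIs. No pair of libraries shared more than 13 of its barcodes, over 105 pairs. Cells were clustered with the 8 genes and a wider Wnt list held out, tumors and WT separately, and named from marker genes. CGNP-like cells made up 60.9% ± 2.89 (SD, n = 5) of WT cells, 84.7% ± 3.62 of vehicle cells and 80.1% ± 2.09 of vismodegib cells. They were divided into cycling, progenitor, differentiating and late stages by the marker list that led in each cluster. Whether the cells of the progenitor stage were out of the cell cycle was not tested. Levels below are CPM, the UMIs of a gene in 1000000 UMIs summed over the cells of a class in 1 animal, and an animal entered with at least 10 cells of that class. In such sums, fewer cells of a kind and less RNA per cell cannot be told apart. Levels of different genes are not compared with each other.

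As a check on the labels, 2 of 3 hedgehog targets in CGNP-like cells were lower with vismodegib (all 3 are also among the progenitor markers). Hhip, a membrane antagonist of hedgehog ligands, fell from a mean of 39.6 to 5.94 CPM (log2 fold change -2.71 ± 0.21 (SE), adjusted p = 1.36e-05, edgeR quasi-likelihood test with Benjamini-Hochberg adjustment over all genes tested). Ptch1, the hedgehog receptor, fell from 20.5 to 7.37 CPM (-1.44 ± 0.22, adjusted p = 0.000869, same test). Gli1 averaged 76.9 and 56.4 CPM and did not pass (-0.46 ± 0.33, adjusted p = 0.415, same test).

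Promoter sequences are shown for Axin2, Sfrp2, Lef1 and Tcf7l2, on which results below turn, to show where words bound by Lef and Tcf factors do and do not occur. RefSeq (GRCm38.p6) gave 11 promoter windows of 6 of the 8 genes, each from 250 bases before to 50 after a start. Both strands were searched for the Tcf/Lef words CTTTGA and CTTTGT and for the Gli word GACCACCCA. The Tcf/Lef words differ only in their last letter. Matches are in capitals, so that a match on the opposite strand reads TCAAAG or ACAAAG. The windows of Axin2 (chr11:108920099-108920398, + strand) and Sfrp2 (chr3:83766071-83766370, + strand) held no match. One of 4 Lef1 windows, at an inner start (chr3:131156044-131156343, + strand), held 2 CTTTGA and 1 CTTTGT, and a Tcf7l2 window at an inner start (chr19:55895071-55895370, + strand) held 1 CTTTGT.
Axin2: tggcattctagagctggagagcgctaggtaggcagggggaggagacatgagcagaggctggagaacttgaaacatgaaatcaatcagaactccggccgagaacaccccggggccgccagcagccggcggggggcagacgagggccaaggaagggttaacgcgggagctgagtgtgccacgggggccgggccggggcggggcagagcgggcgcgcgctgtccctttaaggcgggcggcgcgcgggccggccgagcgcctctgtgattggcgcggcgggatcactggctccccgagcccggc
Sfrp2: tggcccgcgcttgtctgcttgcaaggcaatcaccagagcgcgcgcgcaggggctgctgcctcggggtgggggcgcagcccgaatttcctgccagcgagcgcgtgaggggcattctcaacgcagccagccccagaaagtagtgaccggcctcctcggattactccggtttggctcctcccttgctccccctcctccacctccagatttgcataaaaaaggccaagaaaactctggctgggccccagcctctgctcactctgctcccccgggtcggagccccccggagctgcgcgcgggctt
Lef1: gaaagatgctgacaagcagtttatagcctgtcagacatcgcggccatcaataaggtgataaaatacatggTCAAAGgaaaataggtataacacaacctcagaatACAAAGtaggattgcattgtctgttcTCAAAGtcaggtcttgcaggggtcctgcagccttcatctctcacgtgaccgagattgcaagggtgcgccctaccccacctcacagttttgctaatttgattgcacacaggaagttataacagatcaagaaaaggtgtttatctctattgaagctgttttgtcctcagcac
Tcf7l2: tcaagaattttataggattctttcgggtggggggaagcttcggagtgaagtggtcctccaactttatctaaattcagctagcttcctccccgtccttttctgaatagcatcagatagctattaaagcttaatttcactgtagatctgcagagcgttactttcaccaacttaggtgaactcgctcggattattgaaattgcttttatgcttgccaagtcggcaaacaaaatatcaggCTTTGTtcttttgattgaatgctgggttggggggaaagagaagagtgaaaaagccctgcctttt

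The single Tcf7l1 window (chr6:72788996-72789295, − strand) also held 1 CTTTGT. Thus 3 of the 11 windows, 1 each of 3 genes, held a Tcf/Lef word, and 0 held the Gli word. Of 32851 promoter windows of the same length in the RefSeq table, 31.2% held CTTTGA or CTTTGT (16% and 18.7%), and 0.253% held GACCACCCA. A match describes the letters of a window and does not show that a factor binds there.

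Sfrp1 and Sfrp2, the secreted antagonists, were both lower in CGNP-like cells of vismodegib-treated tumors than of vehicle-treated tumors. Sfrp1 measured 1878, 2087, 1839.7, 2208 and 2814 CPM in vehicle-treated tumors 1 to 5, and 1297, 1044, 1185, 870.1 and 1155 CPM in vismodegib-treated tumors 1 to 5. The groups did not overlap, and Vehicle 5 was the highest. The means were 2165 ± 393 and 1110.25 ± 162 CPM (SD, n = 5 each), and the fitted level was 1.96-fold lower with vismodegib (log2 fold change -0.97 ± 0.16 (SE), adjusted p = 0.00125, edgeR quasi-likelihood test with Benjamini-Hochberg adjustment over all genes). Sfrp2 measured 71.7, 108, 109, 86.2 and 109 CPM with vehicle and 53.5, 54.0, 44.5, 37.1 and 32.9 CPM with vismodegib. Here too every treated tumor lay below every vehicle tumor. The means were 96.9 ± 17.2 and 44.4 ± 9.51 CPM, and the fitted level was 2.21-fold lower (-1.14 ± 0.18, adjusted p = 0.000907, same test). Over all 20 settings, with the main fit and each left-out animal among them, the adjusted p reached at most 0.00528 for Sfrp1 and 0.00900 for Sfrp2.

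These were 2 of the 6 members with enough counts to be tested in CGNP-like cells, both lower. Of all 12317 genes tested in that comparison, 13.4% passed, 8.7% higher and 4.69% lower. The median log2 fold change was -0.16 over the 6 members and 0.00 over all genes. Axin2, the negative feedback target, measured 29.9, 21.8, 29.3, 17.4 and 18.1 CPM with vehicle and 24.1, 31.7, 33.5, 53.2 and 44.1 CPM with vismodegib. The groups overlapped, with 3 vehicle tumors below all treated tumors. Its means were 23.3 ± 5.98 and 37.3 ± 11.4 CPM (0.73 ± 0.23, adjusted p = 0.0567, edgeR quasi-likelihood test), so it did not pass. Under other settings and left-out animals its adjusted p ran from 0.0259 to 0.161, and it passed, among others, with DESeq2 (0.0305) and without Vehicle 3 (0.0401) or Vismodegib 1 (0.0276). The ratio of the treated to the vehicle mean was 1.10 among libraries with serial numbers up to 10 and 2.74 among those from 12.

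Ctnnb1, the transcript of β-catenin, averaged 302 ± 58.0 CPM with vehicle and 274 ± 118 CPM with vismodegib (-0.15 ± 0.25, adjusted p = 0.761, edgeR quasi-likelihood test). The treated tumors spread from 137 to 404 CPM and spanned the range of the vehicle tumors, 231 to 378 CPM. The ratio of the treated to the vehicle mean of Ctnnb1 was 1.07 among libraries with serial numbers up to 10 and 0.600 among those from 12. Tcf7l1, mostly known as a repressor of Wnt targets in the absence of β-catenin, lay between 2.87 and 9.47 CPM in all 10 tumors (0.46 ± 0.29, adjusted p = 0.365, same test). Tcf7l2, a β-catenin partner with activating and repressing isoforms, lay between 6.63 and 15.7 CPM (-0.17 ± 0.26, adjusted p = 0.739, same test). Lef1 and Dkk3 had too few counts in CGNP-like cells to be tested. Lef1 had 22 UMIs over all vehicle and 18 over all vismodegib CGNP-like cells.

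**Figure D1:**
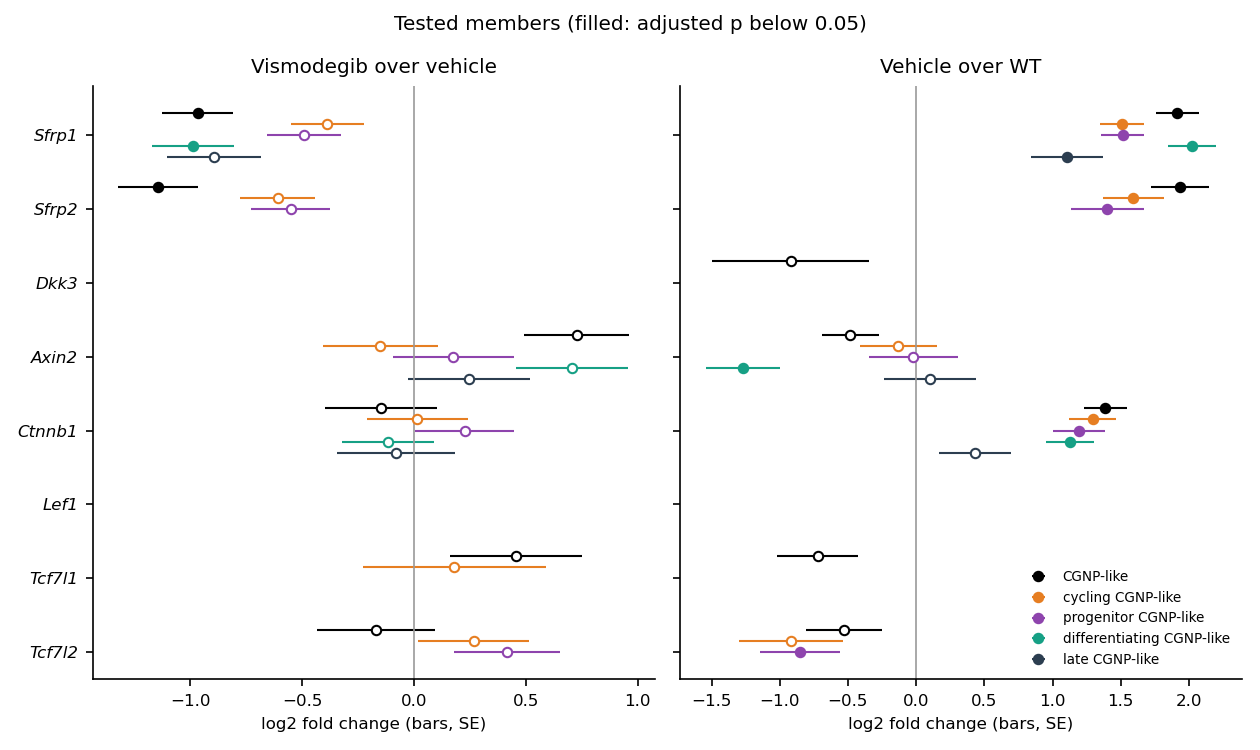
Log2 fold changes of the members by cell class for vismodegib against vehicle and for vehicle against WT, with points for the edgeR estimates, bars for 1 SE to each side and filled points for an adjusted p below 0.05. Sfrp1 and Sfrp2 sit below 0 in CGNP-like cells with vismodegib (-0.97 and -1.14) and above 0 in vehicle-treated tumors against WT (1.91 and 1.94).

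Over the stages of the lineage, Sfrp1 was graded. In WT cerebella its mean was 821 CPM in progenitor CGNP-like cells, 701 in cycling cells, 265 in differentiating cells and 175 in late cells. The same order held in vehicle-treated tumors (2614, 2181, 1181 and 405 CPM) and in vismodegib-treated tumors (1844, 1678, 589 and 223 CPM). Progenitor and cycling cells overlapped between animals in each group, whereas the differentiating cells lay apart below them. The progenitor mean over animals was 4.69-fold the late mean in WT, 6.45-fold with vehicle and 8.25-fold with vismodegib, and the progenitor level was the higher in 5 of 5 animals each. Sfrp2 was also highest in progenitor and cycling CGNP-like cells among these stages (120 and 112 CPM with vehicle). Its progenitor level exceeded the differentiating level 8.5-fold in WT, 10.5-fold with vehicle and 13-fold with vismodegib. Classes are clusters of the same cells, so these orders are descriptions without a test.

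Within single stages, the member that passed with vismodegib was Sfrp1, in differentiating cells. It measured 1129, 1009.5, 973, 1117 and 1676 CPM there with vehicle and 488, 476, 584, 594 and 801 CPM with vismodegib. The groups did not overlap, with Vehicle 5 far above the other vehicle tumors. The log2 fold change was -0.99 ± 0.19 (SE) with an adjusted p of 0.0286 in edgeR's quasi-likelihood test, and it was 1 of 3 members tested that passed, where 0.246% of all genes did. The call was lost in 6 of the 10 fits that left out 1 tumor (Vehicle 4 or 5, or Vismodegib 1, 2, 3 or 4), with adjusted p from 0.0514 to 0.0917.

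In late cells, Sfrp1 measured 209, 439, 332, 407 and 640.1 CPM with vehicle and 261, 173, 237, 210 and 236 CPM with vismodegib. These groups overlapped through Vehicle 1 (-0.89 ± 0.21, adjusted p = 0.332, edgeR quasi-likelihood test). No member of 3 tested passed in late cells, against 0.0514% of all genes. Sfrp1 there passed without the filter on low counts (adjusted p = 0.00862) and without Vehicle 1 (0.0321).

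In progenitor cells, Sfrp1 measured 2131, 2537, 2349, 2823 and 3231 CPM with vehicle and 1892, 1599, 1754, 1653 and 2322 CPM with vismodegib. The groups overlapped through Vismodegib 5 and did not differ past the threshold (-0.49 ± 0.17, adjusted p = 0.142, edgeR quasi-likelihood test). In cycling cells the Sfrp1 values were -0.39 ± 0.16 and adjusted p = 0.335. Passing genes made up 2.96% of those tested in progenitor cells (0 of 5 members) and 2.16% in cycling cells (0 of 6 members).

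Sfrp2 in cycling cells measured 77.1, 135, 107, 117 and 125 CPM with vehicle and 67.1, 81.8, 71.3, 82.1 and 68.1 CPM with vismodegib. The ranges overlapped through Vehicle 1 (-0.61 ± 0.17, adjusted p = 0.0831, edgeR quasi-likelihood test). This value passed in 6 other settings (adjusted p from 0.0153 to 0.0445), among them DESeq2 (0.0326) and the fit without Vehicle 1 (0.0153), and in progenitor cells Sfrp2 (-0.55 ± 0.18, adjusted p = 0.119) likewise passed without Vehicle 1 (0.0303). Axin2 differed by -0.15 and 0.18 in cycling and progenitor cells and by 0.71 ± 0.25 and 0.25 in differentiating and late cells, of which none passed (adjusted p = 0.365 in differentiating cells). The direction of the Axin2 difference turned between libraries with serial numbers up to 10 and those from 12 in cycling (ratios 0.618 and 1.36), progenitor (0.772 and 1.87) and late cells (0.854 and 1.72). Ctnnb1 had log2 fold changes from -0.12 to 0.23 over the stages, none of which passed, and its direction turned likewise in all 4 stages (ratios of 1.03 to 1.35 and of 0.655 to 0.858).

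**Figure D2:**
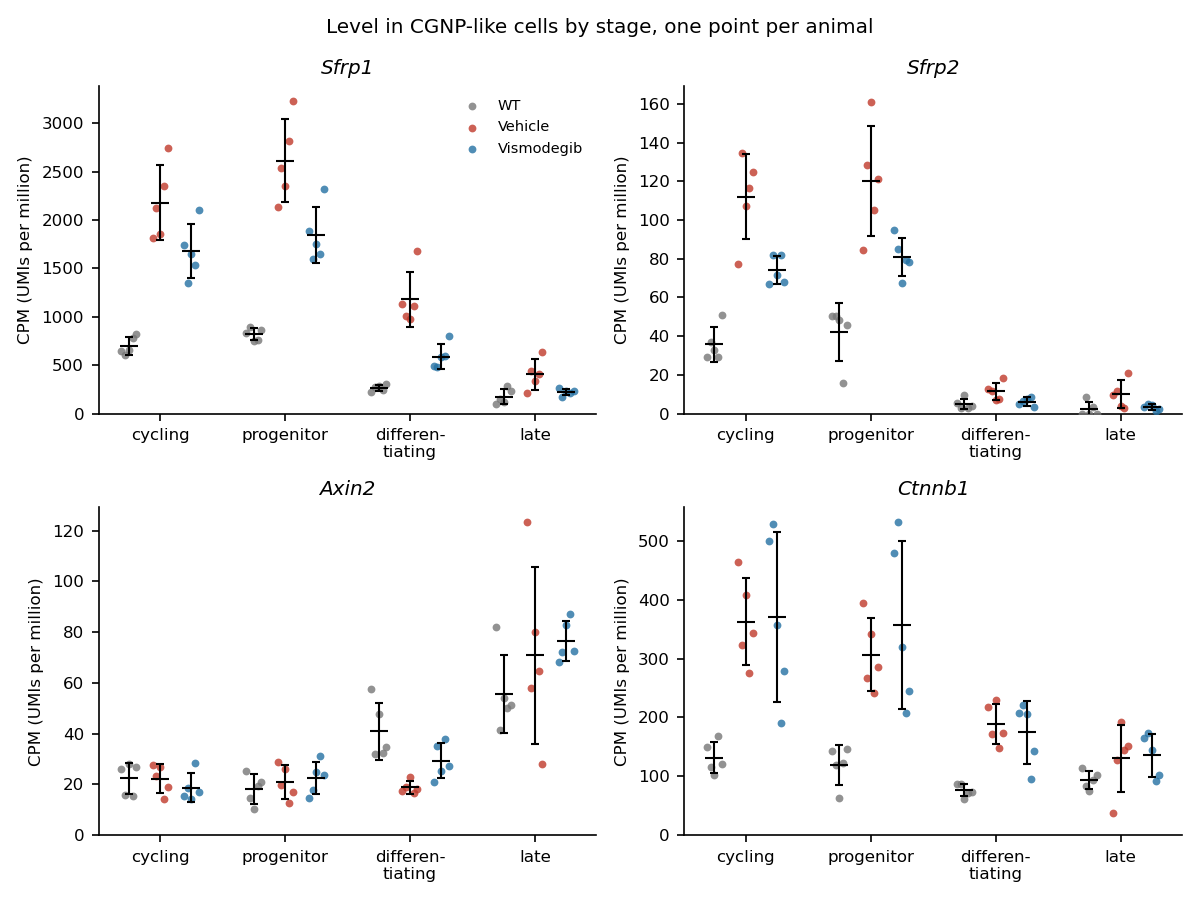
CPM of Sfrp1, Sfrp2, Axin2 and Ctnnb1 in the 4 stages of CGNP-like cells, with a point for each animal and the mean ± SD of up to 5 animals per group. The Sfrp1 level steps down from progenitor to late cells in each group (821 to 175 CPM in WT, 2614 to 405 with vehicle and 1844 to 223 with vismodegib).

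Whether the treatment difference itself varied with stage was tested as an interaction, the change with vismodegib in differentiating plus late cells minus that in cycling plus progenitor cells. It passed for 4 of 6 members, among 16.6% of 11559 genes. The median was 0.00 over the members and 0.00 over all genes. For Sfrp1 the fall was larger in the differentiating and late cells by 1.0 on the log2 scale (-1.0 ± 0.10 (SE), adjusted p = 1.27e-09, edgeR quasi-likelihood test). Axin2 went the other way (1.03 ± 0.20, adjusted p = 0.000342, same test), with treated differentiating cells at 21, 35.2, 25.4, 37.9 and 27.2 CPM against 17.2, 19, 22.9, 16.6 and 18.2 CPM with vehicle. In these differentiating cells only Vismodegib 1 fell within the range of the vehicle tumors. Late cells, the other part of the sums, overlapped in Axin2, at 28.1 to 123 CPM with vehicle and 68.0 to 87.0 CPM with vismodegib. They held 72 Axin2 UMIs with vehicle and 618 with vismodegib, beside 83 and 121 in differentiating cells. The late means of Sfrp1 were 405 CPM with vehicle and 223 CPM with vismodegib, beside 319 and 124 CPM in microglia-like cells. The part of free RNA in the Sfrp1 interaction was not tested.

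For Sfrp2 the interaction was -1.01 ± 0.32 (adjusted p = 0.0250, edgeR quasi-likelihood test). It was lost with DESeq2 (adjusted p = 0.207), without Vismodegib 4 (0.109) or 5 (0.103), and without Vehicle 5, which gave -0.63 (0.281). Its levels in differentiating and late cells were low, with means of 11.4 and 9.85 CPM with vehicle and 6.21 and 3.38 CPM with vismodegib, against 14.4 and 4.97 CPM in microglia-like cells of these groups. At such levels the part of free RNA in the Sfrp2 interaction was not tested. For Ctnnb1 it was -0.33 ± 0.10 (adjusted p = 0.0198, same test), lost without the filter on low counts (0.0735) and without Vehicle 2 (0.0749), Vehicle 4 (0.0533) or Vismodegib 2 (0.0686). Tcf7l1 (1.11 ± 0.54, adjusted p = 0.163) and Tcf7l2 (0.34 ± 0.57, adjusted p = 0.759) did not pass, although Tcf7l1 did without Vismodegib 2 (0.0350). The differentiating plus late cells held 698 late and 2812 differentiating cells with vehicle but 3987 late and 2163 differentiating cells with vismodegib, and the mean levels of Sfrp1 and Axin2, and less so of Ctnnb1 (188 and 131 CPM with vehicle, 175 and 135 CPM with vismodegib), differed between differentiating and late cells. The part of that shift in the interactions was not tested.

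Different clusters also made up the progenitor class in the tumors. One cluster gave 4457 of its cells with vehicle and 755 with vismodegib, and another gave 2751 and 1043.

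Compared with WT, vehicle-treated tumors had higher Sfrp1, Sfrp2 and Ctnnb1 in CGNP-like cells. Sfrp1 measured 515, 488, 530.0, 541 and 632 CPM in the 5 WT cerebella, all below the 1839.7 CPM of the lowest vehicle tumor. The WT mean was 542 ± 54.6 CPM, and the fitted level was 3.77-fold higher in the tumors (1.91 ± 0.16, adjusted p = 4.07e-07, edgeR quasi-likelihood test). Sfrp2 measured 23.6, 24.9, 28.5, 14.3 and 32.1 CPM in WT, again below every vehicle tumor, and its fitted level was 3.83-fold higher in the tumors (1.94 ± 0.21, adjusted p = 5.27e-06, same test). Ctnnb1 measured 129.95, 102, 74.5, 118 and 113 CPM in WT against 378, 267, 340.1, 231 and 294 CPM with vehicle. Its groups did not overlap, and its fitted level was 2.61-fold higher in the tumors (1.39 ± 0.16, adjusted p = 6.94e-06, same test).

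These 3 of the 7 members tested passed where 44% of 12354 genes did, 20.9% higher and 23.2% lower, so a count of this size is near the background. The median log2 fold change was -0.48 over the members and 0.05 over all genes. Axin2 (-0.48 ± 0.21, adjusted p = 0.0712, edgeR quasi-likelihood test), Tcf7l1 (-0.72 ± 0.29, 0.0568), Tcf7l2 (-0.53 ± 0.28, 0.137) and Dkk3 (-0.92 ± 0.58, 0.208) did not pass. Axin2 passed without Vehicle 3 (0.0433, same test) and with cells holding 2 markers of another class left out (0.0384). Tcf7l1 passed without WT 5 (0.0413), with 4 SD limits (0.0433) and with unnamed progenitor-cluster, hemoglobin-led and neuron-like cells added (0.0252). Tcf7l2 passed without WT 2 (0.0408).

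By stage, Sfrp1 was higher with vehicle than in WT in cycling cells (1.51 ± 0.16), progenitor cells (1.51 ± 0.16), differentiating cells (2.02 ± 0.18) and late cells (1.11 ± 0.26, adjusted p = 0.00185 in edgeR's quasi-likelihood test). The late means of Sfrp1 were 175 CPM in WT and 405 CPM with vehicle, beside 55.1 and 319 CPM in microglia-like cells, a type that should lack Sfrp1, and the part of free RNA in this difference was not tested. Sfrp2 was higher in cycling (1.59 ± 0.22) and progenitor cells (1.40 ± 0.27, adjusted p = 0.000486, same test). Ctnnb1 was higher in cycling (1.29 ± 0.17), progenitor (1.2 ± 0.19) and differentiating cells (1.129 ± 0.17), and in late cells its value was 0.43 ± 0.27 (adjusted p = 0.241). Counted by stage in that order, 3 of 5, 4 of 5, 3 of 3 and 1 of 3 members passed, against 34.4%, 30.9%, 28.8% and 27.2% of all genes.

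Axin2 was lower with vehicle than in WT in differentiating cells only among the 4 stages. It measured 57.6, 31.8, 47.7, 32.3 and 34.7 CPM in WT and, as above, 16.6 to 22.9 CPM with vehicle, without overlap (-1.27 ± 0.27, adjusted p = 0.00138, edgeR quasi-likelihood test). Its differences in cycling, progenitor and late cells were -0.13, -0.02 and 0.10 and did not pass. Whether the change of Axin2 differed between stages in this comparison was not tested. Tcf7l2 in progenitor cells was 26.6 CPM in WT and 16.2 CPM with vehicle (-0.85 ± 0.29, adjusted p = 0.0340, same test), a call that 8 other settings lost, among them the fits without WT 4 or 5 or without Vehicle 2, 3, 4 or 5 (adjusted p from 0.0534 to 0.188 over the 8).

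Droplet data can hold free RNA, and Sfrp1 UMIs were also seen in microglia-like cells. With each cell thinned to 500 UMIs, 19.1% of WT, 56.7% of vehicle and 29.5% of vismodegib CGNP-like cells had an Sfrp1 UMI, against 3.72%, 9.85% and 6.99% of microglia-like cells. Without thinning the shares were 41.4%, 84.0% and 56.8% in CGNP-like cells and 7.83%, 33.9% and 19.4% in microglia-like cells. Median depths per animal were 948 to 2766.5 UMIs in CGNP-like and 1077 to 3071 UMIs in microglia-like cells. Sfrp1 in microglia-like cells measured 268, 313, 366 and 328 CPM in Vehicle 1, 2, 4 and 5, and 53.5, 136, 264, 103 and 65.3 CPM with vismodegib. Late cells were the CGNP-like stage with means nearest to these, and their shares with an Sfrp1 UMI after thinning were 7.48% in WT, 15.5% with vehicle and 9.54% with vismodegib. In microglia-like cells Sfrp1 was 2.78 ± 0.40 higher on the log2 scale with vehicle than in WT (adjusted p = 5.61e-05, edgeR quasi-likelihood test; 1 of 2 members tested, 20.6% of all genes).

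Sfrp1 outside the CGNP-like cells is therefore given beside its means in microglia-like cells, 55.1 CPM in WT, 319 CPM with vehicle and 124 CPM with vismodegib, and the part of free RNA in it was not tested. In oligodendrocyte-like cells Sfrp1 measured 209.9, 348, 228, 186 and 396 CPM with vehicle and 47.2, 29.4, 134 and 57.5 CPM in Vismodegib 1, 2, 4 and 5. The groups did not overlap (-1.72 ± 0.36, adjusted p = 0.0113, edgeR quasi-likelihood test; lost without Vismodegib 5, 0.0874), as the 1 of 3 members that passed among 3.91% of all genes. Their means, 274 CPM with vehicle and 67.0 CPM with vismodegib, lay below those of the microglia-like cells. Sfrp1 was also higher with vehicle than in WT in oligodendrocyte-like cells (1.2, adjusted p = 0.00708) and astrocyte-like cells (1.10 ± 0.39, adjusted p = 0.0379, same test). The astrocyte call was lost in 8 settings, among them DESeq2 (0.257), no filter on low counts (0.167) and 5 left-out animals, with a value of 0.19 without Vehicle 5 (0.877). The WT means of these classes, 125 and 95.0 CPM, were above that of microglia-like cells, and the vehicle means, 274 and 148 CPM, below it.

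Tcf7l2 is known to act in the maturation of oligodendrocytes. Among the named classes its level was highest in maturing oligodendrocyte-like cells, with means of 488 CPM in WT, 201 CPM with vehicle and 276 CPM with vismodegib. In oligodendrocyte progenitor (OPC)-like cells the means were 139, 30 and 101 CPM. Over all oligodendrocyte-like cells Tcf7l2 measured 294, 332, 395, 332 and 164 CPM in WT, and 121, 58.0, 60, 129 and 72.8 CPM with vehicle. The groups did not overlap. Their means were 303 ± 86 and 88.1 ± 34.1 CPM, and the fitted level of Tcf7l2 was 3.60-fold lower with vehicle than in WT (-1.85 ± 0.29, adjusted p = 5.55e-05, edgeR quasi-likelihood test). With each cell thinned to 500 UMIs the means were 299 and 43.1 CPM.

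All 3 members tested in oligodendrocyte-like cells passed in that comparison, among 26.7% of all genes. Ctnnb1 was the remaining one (0.93 ± 0.25, adjusted p = 0.00770, edgeR quasi-likelihood test). In maturing cells alone, Tcf7l2 was also lower with vehicle (-1.34 ± 0.33, adjusted p = 0.00525, same test), as 1 of 2 members tested, among 21.4% of all genes. Its ranges there overlapped, 162 to 680 CPM in WT and 137 to 233 CPM with vehicle. In OPC-like cells, both members tested passed, Sfrp1 (1.29, with means of 148 CPM in WT and 322 CPM with vehicle) and Ctnnb1 (0.93, adjusted p = 0.0189, same test), among 26.4% of all genes. OPC-like cells made up 2.06% of WT and 1.57% of vehicle cells and maturing cells 1.34% and 0.630%.

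With vismodegib, Tcf7l2 measured 361, 176, 124 and 191 CPM in oligodendrocyte-like cells of Vismodegib 1, 2, 4 and 5. Vismodegib 4 lay among the vehicle tumors and the others above them. The mean of 213 ± 103 CPM was higher than with vehicle by 1.31 ± 0.37 on the log2 scale, which did not pass (adjusted p = 0.0509, edgeR quasi-likelihood test). It passed in 6 other settings. These were DESeq2 (0.0352), no filter on low counts (0.0256), and the serial number group (0.0367) or the earlier set (0.0296) as a covariate. The set called earlier held Vehicle 1, Vehicle 3 and Vismodegib 1, 2 and 3, and does not follow the serial numbers. What sets these tumors apart is not given by the sample labels used here, so the meaning of this covariate is uncertain. The remaining settings left out Vehicle 1 (0.0345) or Vismodegib 4 (0.00771). Between the treatments the make-up of the class also differed. OPC-like cells made up 1.57% of vehicle and 0.483% of vismodegib cells, and maturing cells 0.630% and 0.732%. In maturing cells alone the difference was 0.50 ± 0.41 (adjusted p = 0.811, same test), and 0 of 1677 genes passed there, with 135 at an unadjusted p under 0.05. The part of the make-up of the class was not tested further.

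Lef1, a nuclear partner of β-catenin and a marker of Wnt activity in brain endothelium, was found mainly in endothelial-like cells. It measured 183, 479 and 165 CPM in Vehicle 1, 2 and 5, and 288, 221, 362 and 276 CPM in Vismodegib 2 to 5. The groups overlapped, with means of 276 ± 177 and 287 ± 57.9 CPM (0.15 ± 0.45, adjusted p = 0.960, edgeR quasi-likelihood test). In both tumor groups these values lay apart from the next class, vascular fibroblast-like cells, with means of 51.2 and 47.3 CPM. WT 4 was the only WT animal with enough endothelial-like cells, with 1 Lef1 UMI (33.9 CPM), so this class was not compared with WT. Over all 27 WT endothelial-like cells Lef1 had 15 UMIs, a pooled level of 131 CPM, against 233 CPM with vehicle and 300.3 CPM with vismodegib pooled in the same way. No gene of 712 passed for vismodegib in endothelial-like cells (0%) by edgeR or DESeq2, with 38 at an unadjusted p under 0.05. Of the members, Ctnnb1 was tested there too (-0.06 ± 0.41, adjusted p = 0.974). In astrocyte-like cells Lef1 had 0 UMIs in every group, which allows a level of up to 3.76 CPM in WT, 6.19 CPM with vehicle and 2.64 CPM with vismodegib at 3 UMIs.

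Among classes with at least 3 animals, Axin2 had its highest means in vascular fibroblast-like cells in each group. It measured 201, 172, 135, 362 and 321 CPM in WT, 133, 127, 157 and 70.1 CPM in Vehicle 1, 2, 4 and 5, and 305, 438, 206, 261 and 129.8 CPM with vismodegib. The 3 groups overlapped, and counts in this class were too low for a test of Axin2. Among classes with at least 3 animals, the next in order was late CGNP-like cells in WT (55.7 CPM) and with vehicle (70.8 CPM), and endothelial-like cells with vismodegib (85.8 CPM, followed by late cells at 76.5 CPM). The fibroblast-like range lay apart from that of the next class in WT and with vismodegib, and overlapped it with vehicle. Late cells exceeded progenitor cells in Axin2 3.08-fold in WT and 3.41-fold in either tumor group, in 5 of 5 animals each, the opposite order to that of Sfrp1. In microglia-like cells Axin2 had 0 UMIs in WT and 1 in each tumor group. Mural-like cells, with fewer than 3 animals in each group, had pooled Axin2 levels of 197 CPM in WT, 101 with vehicle and 226 with vismodegib. Fibroblast-like cells pooled in the same way had 251, 105 and 222 CPM.

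Dkk3, a secreted relative of the Dickkopf antagonists, was found in astrocyte-like and vascular fibroblast-like cells and, in WT, in GABAergic progenitor-like cells (94.5, 115, 163, 120.2 and 59.7 CPM). In astrocyte-like cells it measured 211, 243, 201, 149 and 82.7 CPM in WT, and 150.3, 192, 72.2 and 207 CPM in Vehicle 1, 2, 4 and 5. These overlapped, with a log2 fold change of -0.08 ± 0.32 (adjusted p = 0.887, edgeR quasi-likelihood test). With vismodegib it measured 77.2, 101, 103, 49.3 and 79.4 CPM, all below Vehicle 1, 2 and 5 and on both sides of Vehicle 4. Counts of Dkk3 were too low to be tested in that comparison. In fibroblast-like cells Dkk3 averaged 80.3 CPM in WT, 149 CPM with vehicle and 138 CPM with vismodegib, with overlapping ranges. Mural-like cells, with too few animals for a mean, had 2 Dkk3 UMIs in WT, 5 with vehicle and 14 with vismodegib. Their pooled levels were 65.5, 127 and 211 CPM, beside 94.8, 163 and 134 CPM in fibroblast-like cells pooled in the same way. In CGNP-like cells it did not exceed 7.45 CPM in any animal.

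Tcf7l1 had its highest means in astrocyte-like cells (50.1 CPM in WT, 29.4 with vehicle and 26.2 with vismodegib), maturing oligodendrocyte-like cells (52.8, 10.4 and 37.5 CPM), vascular fibroblast-like cells (36.1, 9.56 and 27.6 CPM) and endothelial-like cells with vehicle (81.5 ± 93.0 CPM, n = 3). The ranges of these classes overlapped within each group. Classes with fewer than 3 animals were left out of this order. Ctnnb1 was present in every class, with means in endothelial-like cells of 599 CPM with vehicle and 583.5 CPM with vismodegib that overlapped those of its neighbors. In astrocyte-like cells it was higher with vehicle than in WT (1.36 ± 0.28, adjusted p = 0.000488, edgeR quasi-likelihood test), as 1 of 2 members called of 3 tested, among 26.6% of all genes. In microglia-like cells its difference was 1.17 ± 0.43 (adjusted p = 0.0589, same test), which passed in 4 other settings, without the filter on low counts (0.0422) and without WT 4 (0.0468), Vehicle 2 (0.0191) or Vehicle 4 (0.0454). In no class did Ctnnb1 pass for vismodegib against vehicle. Neither did any of 2 members each in astrocyte-like (1.57% of all genes), microglia-like (0.11%) or vascular fibroblast-like cells (1.12%). Sfrp1 in microglia-like cells (-1.50 ± 0.35, adjusted p = 0.0988, same test) passed with DESeq2 (0.0292), without the filter on low counts (0.00589) and without Vismodegib 3 (0.00865).

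**Figure D3:**
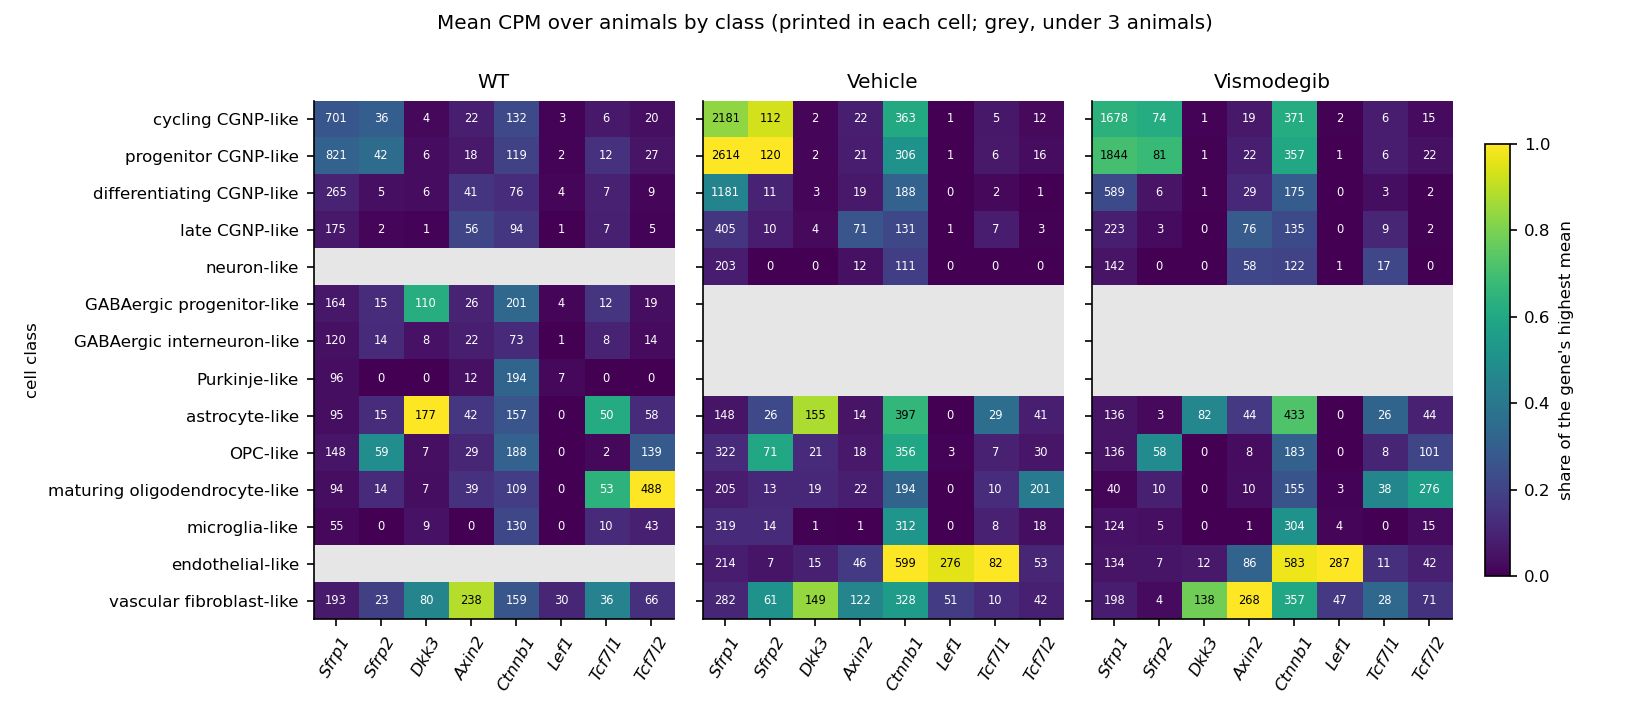
Mean CPM of each member by cell class and group, printed in each cell, with the color giving the share of that gene's highest mean and gray marking classes with fewer than 3 animals. Lef1 peaks in endothelial-like cells, Tcf7l2 in maturing oligodendrocyte-like cells, Axin2 in vascular fibroblast-like cells, and Sfrp1 in progenitor CGNP-like cells.

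**Figure D4:**
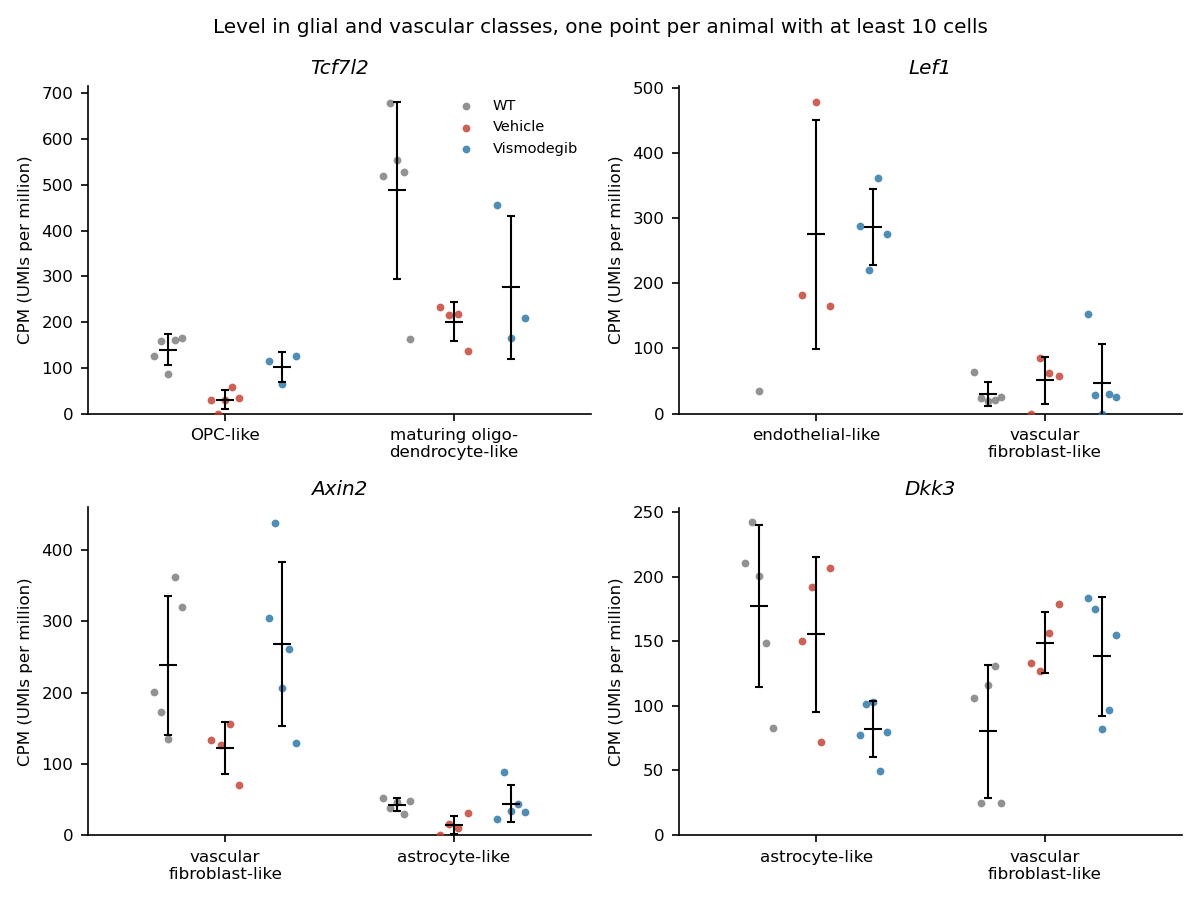
CPM of Tcf7l2, Lef1, Axin2 and Dkk3 in glial and vascular classes, with a point for each animal that had at least 10 cells of the class and the mean ± SD of its group. In OPC-like cells Tcf7l2 lies at 85.5 to 166 CPM in WT and at 0 to 57.5 CPM with vehicle. In maturing oligodendrocyte-like cells the ranges of WT (162 to 680 CPM) and vehicle (137 to 233 CPM) overlap.

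Summed over all kept cells of a tumor, Sfrp1 measured 1753, 1971, 1769, 2035 and 2600.4 CPM with vehicle and 1115, 969.7, 1070.4, 747 and 963 CPM with vismodegib. The groups did not overlap, and the ratio of the means was 0.480 (2-sided exact permutation test, p = 0.00794, the smallest that 252 splits of 5 against 5 allow). Sfrp2 measured 64.5, 99.3, 104, 79.1 and 99.9 CPM with vehicle and 45.6, 49.4, 44.1, 31.3 and 28.2 CPM with vismodegib, also without overlap (ratio 0.444, exact p = 0.00794). Axin2 measured 28.7, 22.1, 29.5, 17.7 and 19.2 CPM with vehicle and 28.4, 37.7, 34.7, 53.9 and 41.5 CPM with vismodegib (ratio 1.67, exact p = 0.0238). Only Vismodegib 1 fell within the vehicle range.

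All 8 members were tested this way, without correction for the 8 tests. Lef1 rose from a range of 0.931 to 3.49 CPM to one of 2.34 to 6.99 CPM (ratio 2.20, exact p = 0.0476, lost in 7 of 10 sets with 1 tumor left out). Tcf7l1 rose from 4.47 to 5.97 CPM to a range of 5.71 to 11.2 CPM (ratio 1.47, exact p = 0.0238, up to 0.0635 with 1 tumor left out). Tcf7l2 (1.15, exact p = 0.262), Ctnnb1 (0.939, exact p = 0.762) and Dkk3 (1.11, exact p = 0.627) did not pass.

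Progenitor CGNP-like cells averaged 44.0% of kept cells with vehicle and 20.1% with vismodegib, and late cells 5.16% and 28.3%. Each tumor was therefore also weighted to the mean class shares of the vehicle-treated tumors. At equal shares the ratio was 0.705 for Sfrp1 and 0.663 for Sfrp2 (exact permutation p = 0.0238 each). For Axin2 it was 1.14 (exact p = 0.421), with 0.905 among libraries with serial numbers up to 10 and 1.66 among those from 12. The ratio was 1.57 for Lef1 (exact p = 0.254) and 1.16 for Tcf7l1 (exact p = 0.484). Dkk3 at equal shares was 0.544 (exact p = 0.0476, lost in 7 of 10 sets with 1 tumor left out). Tcf7l2 (1.32, exact p = 0.0635) and Ctnnb1 (1.09, exact p = 0.683) did not pass.

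**Figure D5:**
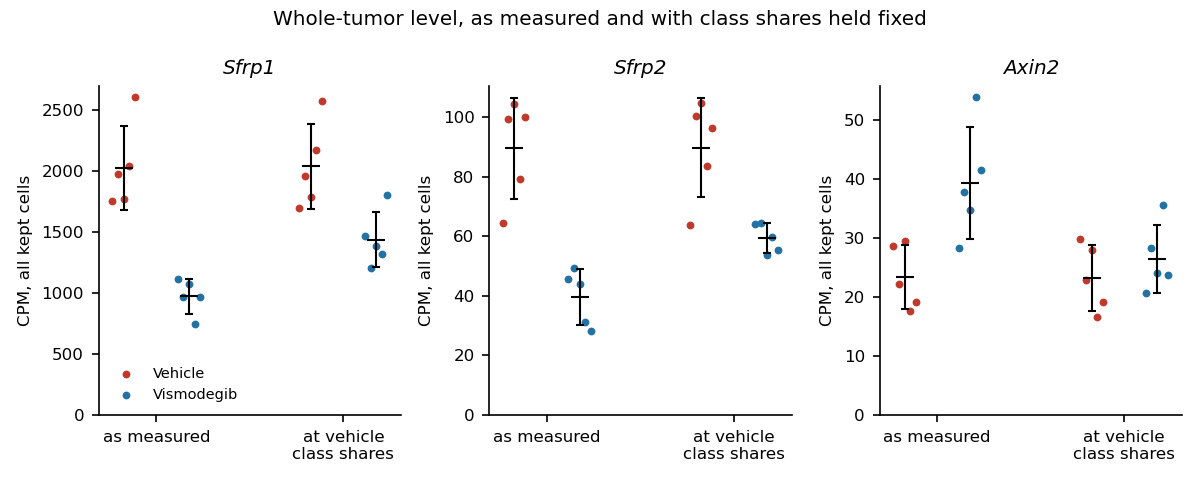
CPM of Sfrp1, Sfrp2 and Axin2 over all kept cells of each tumor, as measured and at the mean class shares of the vehicle-treated tumors, with a point for each of 5 tumors per group and the group mean. The Axin2 difference (ratio 1.67) shrinks to 1.14 at equal class shares, and those of Sfrp1 and Sfrp2 to 0.705 and 0.663.

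Beside the members, a list of 86 other Wnt pathway genes was followed, of which 45 had enough counts to be tested in CGNP-like cells. With vismodegib, 3 of these were higher and 5 lower, against 13.4% of all genes, and the median log2 fold change was 0.18 over the list and 0.00 over all genes. Among receptors and ligands, Fzd1, a Frizzled receptor, fell from 42.4 to 9.81 CPM (-2.16), Wnt4, a ligand, fell (-1.95), and Lgr5, a receptor for R-spondins, rose (0.84, adjusted p = 0.0287, edgeR quasi-likelihood test). In the destruction complex, Apc (0.53, adjusted p = 0.0275) and Apc2 (1.37, adjusted p = 0.00343) were higher. Of the targets, Myc fell from 69.9 to 8.71 CPM (-2.95, adjusted p = 2.64e-06) and Ccnd1, which encodes cyclin D1, from 748 to 290.1 CPM (-1.37, adjusted p = 0.000405). Tle1, a co-repressor of Tcf factors, also fell (-0.74). Myc and Ccnd1 are also targets of other pathways.

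Between vehicle-treated tumors and WT, 16 of the 45 listed genes tested were higher and 7 lower, against 20.9% higher and 23.2% lower of all genes, so the total is near the background of 44%. The median was 0.33 over the list and 0.05 over all genes. Wnt4 (4.90), Fzd1 (3.52) and Myc (3.32) were higher with vehicle, as were Tle1, Tle4, Dvl1, Dvl2, Pygo1, Pygo2, Ryk, Fzd2 and Ccnd1. Sp5, a Wnt target that encodes a zinc finger repressor, fell from 40.8 CPM in WT to 1.08 CPM with vehicle (-5.37, adjusted p = 1.60e-08, edgeR quasi-likelihood test). Apc (-0.83), Apc2 (-1.47), Ctnnbip1 and Fzd3 were also lower. Both comparisons share the vehicle-treated tumors.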

How the data were processed

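Single cells of 15 mice were measured by Drop-seq. The authors aligned reads with Drop-seq Tools and STAR (per the labels, STAR 5.4b, with mm10 and hg19 and bcl2fastq 2.18), kept tumor barcodes with over 90% mouse reads, and deposited UMI counts per gene and barcode for each library, not normalized. Of the annotation no version is given in the sources used here. No column of values was left out (0).

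Barcodes below 500 UMIs or 500 genes were dropped, as were those exceeding their animal's median by over 5 SD. Tumor cells (30722, 17 clusters) and WT cells (14 clusters) were clustered by the Louvain method (resolution 0.8, 30 neighbors) in Python 3.11.15 with numpy 2.4.6, scipy 1.17.1 and pandas 2.3.3. The 8 members and 86 listed Wnt genes were held out. Names came from marker lists, by a rule settled after the clusters had been seen. A large progenitor cluster was clustered again, and 1092 vehicle, 321 vismodegib and 42 WT cells stayed unnamed. No doublet caller was run beyond the upper limits. As an alternative, CGNP-like cells with 2 or more markers of another class were left out (11333 of 29639, 38.2%).

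Counts were summed per animal and class and tested in R 4.3.3 with edgeR 4.0.16 (TMM, filterByExpr, quasi-likelihood test, built on limma 3.58.1), with genes called at an adjusted p below 0.05. Each comparison used only its own groups, with at least 3 animals of 10 cells each per group. The standard error is the log2 fold change over the root of F. DESeq2 1.42.0 was the other tool. The fits were tested on simulated data. Of 2-fold changes, 36.2% were recovered in CGNP-like and 40% in oligodendrocyte-like cells between treatments. The share was 61.2% in CGNP-like cells against WT and 10% for the interaction. Of 4-fold changes the shares were 92.1%, 86.7%, 87.7% and 72.4% in the same order. A member that did not pass may therefore still differ. Whole tumors were compared by exact permutation tests of 5 against 5. Alternatives were normalization, filters, covariates, thinning to 500 UMIs, the resolution (1.2), the SD limit (4) and leaving out each animal. Libraries carry serial numbers that divide the tumors into those up to 10 and those from 12, a division that entered as a covariate and as within-group ratios. The earlier set of tumors named above was another covariate.

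Named genes are all 8 members, Hhip, Ptch1 and Gli1, listed Wnt genes called in CGNP-like cells with a mean of at least 20 CPM in a group, and, per member, the 3 genes nearest in pattern, of which 1 is not reported here. Called Wnt genes below that mean are counted but not named. The members and lists were chosen with earlier results of these data known.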

Additional observations from a re-analysis of the deposited data

Results flagged for a closer look

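In 113 groups of 4 or 5 animals, each of 1 member in 1 class and condition, 8 held an animal that stood far from the rest. The 113 did not cover every such group with enough cells. Chance gives about 1 in 20 such groups. In CGNP-like cells, Sfrp1 was 1676 CPM in differentiating cells of Vehicle 5 (973 to 1129 in the others), Sfrp2 was 15.6 CPM in progenitor cells of WT 4 (45.9 to 50.5), and Tcf7l2 was 45.9 CPM in progenitor cells of WT 5 (17.3 to 25.4). Sfrp1 was 47.2 CPM in astrocyte-like cells of Vismodegib 4 (154 to 165).

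In vascular fibroblast-like cells, Lef1 was 63.5 CPM in WT 1 (19.3 to 24.7 in the others) and 153 CPM in Vismodegib 1 (0 to 29.8). Ctnnb1 there was 219 CPM in Vehicle 4 (356 to 381) and 788 CPM in Vismodegib 2 (208 to 275). The call of Tcf7l2 in progenitor cells between vehicle and WT was lost without WT 5 (-0.59), 1 of 8 settings that lost it. That of Sfrp1 in differentiating cells between treatments was lost without Vehicle 5 (-0.84). It was also lost without Vehicle 4 or Vismodegib 1, 2, 3 or 4 (-0.92 to -1.02).

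The change with vismodegib differed between the differentiating and late and the cycling and progenitor CGNP-like cells, by the test of the difference itself, for Sfrp1 (-1.0), Sfrp2 (-1.01), Ctnnb1 (-0.33) and Axin2 (1.03). The value of Sfrp2 was lost in 4 settings, with DESeq2 and without Vehicle 5 (-0.63), Vismodegib 4 or Vismodegib 5, and that of Ctnnb1 in 4, without the filter on low counts and without Vehicle 2, Vehicle 4 or Vismodegib 2. Those of Sfrp1 and Axin2 were lost in none of the settings run. None of these settings held the shares of differentiating and late cells fixed. Neither the part of their shift nor that of free RNA was tested.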

How the results depend on the processing

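No member's call reversed its direction under any setting. Of the members' log2 fold changes, 333 kept their call, or lack of one, under other settings, 21 came to pass and 7 no longer passed. With an animal left out the numbers were 642, 17 and 24. Values that did not pass could change sign and still count as kept. An example is Sfrp1 in astrocyte-like cells between treatments, from -0.74 to 0.46 with an animal left out. Counts of calls over all genes moved by more than 1.5 times in these cases, and the causes were not tested. By stage, vismodegib against vehicle gave 536 calls, and 927 with DESeq2, 1044 without a filter on low counts, 941 with the library serial number group as a covariate and 1217 with the earlier set as a covariate. In glia and stroma, 164 calls became 406 without the filter, and ranged from 59 (without Vismodegib 5) to 272 (without Vismodegib 4), with 77, 87, 65 and 109 without Vehicle 2, 4, 5 or Vismodegib 1. The interaction gave 1918 calls, 1184 with DESeq2, and 1277 (without Vismodegib 4) to 1920 with an animal left out. Vehicle against WT in CGNP-like cells gave 5441 calls and 2881 in cells thinned to 500 UMIs, where fewer counts were tested. By class it gave 11560, and 18518 without the filter.

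Whole-tumor ratios within libraries of serial numbers up to 10 and from 12 were 0.574 and 0.369 for Sfrp1, 0.519 and 0.333 for Sfrp2, 1.25 and 2.59 for Axin2, 1.92 and 2.99 for Lef1 and 1.27 and 1.85 for Tcf7l1. The direction turned for Ctnnb1 (1.09 and 0.654) and Tcf7l2 (1.34 and 0.884). These sets cannot give a p under 0.1 and 0.333. With a tumor left out, the ratio ran from 1.84 to 2.78 for Lef1 and from 1.33 to 1.58 for Tcf7l1.

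Among levels of at least 20 CPM in the CGNP-like stages and in astrocyte-like, OPC-like, maturing oligodendrocyte-like, microglia-like, endothelial-like and vascular fibroblast-like cells, thinning moved 22 by more than 1 SD. In vehicle-treated tumors, Sfrp1 became 243 CPM in astrocyte-like, 89.4 in maturing oligodendrocyte-like and 258 in microglia-like cells, Sfrp2 70.4 in astrocyte-like and 104 in OPC-like cells, Tcf7l2 91.5 in maturing oligodendrocyte-like and 0 in endothelial-like cells, Ctnnb1 193 in microglia-like cells and Dkk3 198 in vascular fibroblast-like cells. With vismodegib, Sfrp1 became 194 in astrocyte-like cells, Sfrp2 58.8 in cycling, 69.0 in progenitor and 121 in OPC-like cells, Axin2 87.7 in late and 45.5 in endothelial-like cells, Tcf7l2 77.8 in astrocyte-like and 139 in OPC-like cells, Tcf7l1 46.7 and Ctnnb1 525 in astrocyte-like cells. In WT, Sfrp1 became 129.9 in microglia-like cells, Tcf7l2 75.6 in OPC-like cells and Ctnnb1 231 in vascular fibroblast-like cells. Outside that count, CGNP-like cells as a whole moved as far for Sfrp1 in WT (542 to 484) and with vismodegib (1110.25 to 857) and for Sfrp2 with vismodegib (44.4 to 30.4). So did all oligodendrocyte-like cells for Tcf7l2 (88.1 to 43.1) and Sfrp2 (52.1 to 92.2) with vehicle, Sfrp2 with vismodegib (24.5 to 35.7) and Axin2 in WT (36.9 to 17.7), and GABAergic progenitor-like cells for Dkk3 in WT (110.4 to 151). Lower levels were not counted, among them Axin2 in differentiating cells with vehicle (18.8 to 23.6).

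The labels number animals 1 to 5 in each group, and the main fits and permutation tests did not use these numbers as pairs. Same-numbered vehicle and vismodegib tumors had adjacent library serial numbers (5 and 4, 6 and 7, 10 and 9, 13 and 12, 15 and 14). The correlations below are too few to decide whether the numbers pair the tumors. Correlations of same-numbered vehicle and vismodegib tumors were 0.09, -0.15, -0.01, 0.36 and 0.38, with the own number best in 2 of 5, and those of WT and vehicle were all negative. With the replicate block, the calls were 1603 in CGNP-like cells, 668 by stage and 141 in glia and stroma, and 4787 in CGNP-like cells and 10048 by class against WT. The block ended the calls of Tcf7l2 in progenitor cells (adjusted p = 0.0773, edgeR quasi-likelihood test) and of Sfrp1 in astrocyte-like cells (0.347) against WT, and no other call of a member. In the rare classes few members had enough counts to be tested, and the parts of depth and of cell number in this were not separated.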

Other observations

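The genes whose pattern was most like that of a member were taken over 98 profiles of a class in a tumor, as the highest Pearson correlations of log2(CPM + 10) among 12378 genes. The profiles share tumors, libraries and depth, so the values are descriptions. For Sfrp1 they were Hsd11b2 (r = 0.85), Draxin (0.84), which encodes a secreted axon guidance protein, and Cog7 (0.81). For Sfrp2 they were Tyms (0.78), Plk4 (0.77) and Cdca7l (0.76), of which Tyms encodes thymidylate synthase and Plk4 a kinase of centriole duplication.

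For Axin2 they were Cxcl12 (0.71), a chemokine, Nr2f2 (0.70) and Serping1 (0.70), and for Dkk3 Ccdc80 (0.87) and Rarres2 (0.86). For Lef1 they were Adcy4 (0.94), Foxq1 (0.93) and Kcp (0.89), and for Tcf7l2 Kank1 (0.78), S100a13 (0.76) and Gatm (0.71). Ctnnb1 went with Zfp36l1 (0.73), Gnai2 (0.69) and Cmtm3 (0.67). Tcf7l1 had the lowest values of the 8 members, with Notch3 (0.57), Tspan15 (0.52) and Arhgef17 (0.51).

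Over the wider Wnt list, the treatment change differed between differentiating and late and cycling and progenitor CGNP-like cells for 10 of 42 genes tested, 5 in each direction, against 16.6% of all genes.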
